A study of Mus musculus with 30 samples.

Results

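Complement components and regulators, represented by C4b, Cfi, C3, Cfb, C2, C1qa, C1qb, C1qc and Serping1, were followed across 4 genotypes in 2 tissues of the mouse. These 9 genes were picked by symbol from the 55573 rows of the normalized count tables, partly because C4b and Cfi were higher in 2 of the Mertk knockouts in the retinal pigment epithelium (RPE). Their RPE values in those 2 knockouts are therefore a description and carry no test. Mertk encodes a receptor tyrosine kinase with which RPE cells and macrophages engulf photoreceptor outer segments and dying cells.

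RPE was taken at postnatal day 25 as 6 libraries of B6 WT, 6 of Mertk -/-V1 and 3 each of the other knockouts, Mertk -/-V2 and Mertk -/-V3, and bone marrow-derived macrophages (BMDMs) from 3 libraries of each genotype. Mertk -/-V1 mice lack exon 17, keep a neomycin cassette, come from embryonic stem cells of another mouse strain and carry that strain's sequence around Mertk on chromosome 2 after backcrossing to C57BL/6J. Mertk -/-V2 mice lack exon 18, which was removed in a floxed allele by a tamoxifen-inducible Cre that was then bred out, and Mertk -/-V3 mice lack exons 3 and 4 after CRISPR/CAS9 editing of fertilized C57BL/6NJ eggs. The floxed allele behind V2 also began in C57BL/6NJ, so V2 and V3 carry part of that substrain's genome, V3 the larger part, although the labels give all samples as C57BL/6J. B6 WT mice are unedited C57BL/6J animals, and BMDMs were grown from adult marrow for 7 days in L929-conditioned medium. The sample titles call the libraries biological replicates, and they name no litter or preparation day.

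Depth ran from 14137666 to 34124049 reads on genes in the RPE libraries and from 16629659 to 25653814 in the BMDM libraries. In B6 WT and V1 RPE, replicates 1 to 3 were deeper (23417838 to 34124049) than replicates 4 to 6 (14137666 to 20779930). V2 libraries held 29522487 to 33169749 reads, within the first range, and V3 libraries 16476097 to 21573517, below it. Red blood cell markers summed to 30412.5 to 63450 in V2 and 4310 to 8032 in V3. In B6 WT they summed to 17682 to 54305 in replicates 1 to 3 and 7695 to 10238 in replicates 4 to 6. What this split marks was not tested. Whole-gene Mertk counts were lower in V1 and V3 than in B6 WT in both tissues and were not lower in V2, where RPE libraries held 3565 to 5311 normalized counts against 2638 to 3924 in B6 WT. A count over the whole gene does not check the loss of a single exon. All 12 listed RPE markers were detected in every RPE library, but so were 12 rod photoreceptor markers, whose summed level ran from 37809 to 920326 normalized counts. The rod sum passed 300000 in 5 libraries, replicates 5 and 6 of B6 WT and of V1 and replicate 1 of V3, and the RPE marker sum was lowest in V1 replicate 6, at 227041. RPE differences that moved by more than the spread between replicates without those 5 libraries are given both ways. In such bulk samples, more cells of a type cannot be told apart from more RNA per cell.

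Complement is a cascade of plasma and tissue proteins that tags targets for phagocytosis. The classical arm starts when C1q, built from the products of C1qa, C1qb and C1qc, binds a target and its proteases cleave C4 and C2, and the alternative arm uses factor B, the product of Cfb. Both arms meet at C3, the central component. Serping1 encodes C1 inhibitor, which blocks the C1 proteases, and Cfi encodes factor I, the protease that degrades C3b and C4b. In the eye, microglia and other macrophages are known sources of C1q.

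Several members lie side by side in the mouse genome (GRCm38, GENCODE M21 annotation). C1qa (chr4:136895917-136898803), C1qc (chr4:136889804-136893065) and C1qb (chr4:136880129-136886187) form a cluster on the minus strand of chromosome 4. C2 (chr17:34862604-34898265), Cfb (chr17:34856374-34862518) and C4b (chr17:34728380-34743882) lie on the minus strand of chromosome 17, within the major histocompatibility region, and C3 (chr17:57203970-57228136) lies farther along the same chromosome. Cfi is on chromosome 3 (chr3:129835884-129875332, plus strand) and Serping1 on chromosome 2 (chr2:84765387-84775444, minus strand).

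C4b has a near-identical neighbour, C4a, so the 2 transcripts are shown because reads could be split between them. Over 5367 aligned bases of the longest GENCODE transcripts, 96.1% were identical, and 432 of 5230 windows of 150 bases of C4b (8.26%) occurred unchanged in C4a. The most divergent 150-base window within a single coding exon differs at 21 positions, which are in capitals below (both genes on the minus strand, GRCm38, C4b exon 21 at chr17:34735430-34735579, C4a exon 21 at chr17:34816086-34816235).
C4b: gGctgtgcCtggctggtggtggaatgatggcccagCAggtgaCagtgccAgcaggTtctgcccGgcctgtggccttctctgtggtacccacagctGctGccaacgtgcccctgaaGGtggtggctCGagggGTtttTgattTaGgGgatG
C4a: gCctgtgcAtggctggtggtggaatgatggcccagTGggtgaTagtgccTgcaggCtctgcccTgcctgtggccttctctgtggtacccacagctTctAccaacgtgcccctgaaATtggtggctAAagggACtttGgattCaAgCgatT
In RPE the C4a row held 35.5 to 72.9 normalized counts per library, against 777 to 7084 for C4b. In BMDMs both rows were low, 7.46 to 20.2 for C4a and 4.89 to 32.1 for C4b, and there the split between the 2 genes is uncertain.

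The RefSeq promoter table used here listed 3 of the 9 members, C1qb, C1qc and C3. The C1q sequences are shown because C1qb and C1qc each varied with C1qa across the RPE libraries. They run 5′ to 3′ towards the start site on the minus strand of GRCm38.p6 (C1qb at chr4:136886201-136886450; C1qc at chr4:136893066-136893164, where bases inside the annotated gene were left out). Capitals mark matches, on either strand, to GAGGAA, a core of sites for the macrophage factor PU.1, or to TGCTGA, a MAF half-site.
C1qb: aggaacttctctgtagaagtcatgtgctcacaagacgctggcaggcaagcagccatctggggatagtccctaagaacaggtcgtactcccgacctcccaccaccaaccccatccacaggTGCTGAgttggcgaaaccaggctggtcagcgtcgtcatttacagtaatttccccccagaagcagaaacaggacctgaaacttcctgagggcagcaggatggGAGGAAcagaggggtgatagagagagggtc
C1qc: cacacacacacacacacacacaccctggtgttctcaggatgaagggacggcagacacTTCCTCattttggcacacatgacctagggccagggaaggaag
GAGGAA occurred in 23.3% and TGCTGA in 16.1% of the 32851 listed promoters over 250 bases, so these matches are common ones. The search for C1qc also covered 250 bases, of which only 99 are shown. The letters TTCNNNGAA (STAT, in 7.02% of promoters), GAAANNGAA (interferon-stimulated element, in 7.13%) and GGGACTTTC (NF-kappa B, in 0.289%) were not in the windows of C1qb, C1qc or C3. The C3 window held a single TGCTGA match.

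Levels were first set against each other as RPKM, reads per kilobase of annotated exon scaled to library depth, since only values per length compare genes. In B6 WT RPE, Serping1 stood highest at 17.9 ± 3.07 (SD, n = 6), followed by C1qa at 8.55 ± 1.55, C1qb at 8.12 ± 0.992 and C4b at 7.65 ± 2.19, whose spreads overlap. C1qc followed at 4.29 ± 0.629, C2 at 2.14 ± 0.617, C3 at 1.23 ± 0.553 and Cfi at 0.36 ± 0.0949. Cfb was at the limit of detection, with 1 to 8 reads per RPE library.

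BMDMs held a different set. In B6 WT BMDMs the level of C1qb was 1872 ± 29.9 RPKM (SD, n = 3), of C1qa 981 ± 63.8 and of C1qc 952 ± 25.6, and the last 2 did not differ beyond their spread. These levels were 230, 115 and 222 times those of B6 WT RPE. C3 was at 0.91 ± 0.0946, close to its RPE level, while C2 was at 0.163 ± 0.025 and C4b at 0.0788 ± 0.0366. C2 was thus 13.1 times and C4b 97.1 times higher in RPE. Cfi, Cfb and Serping1 had 0 reads in all 12 BMDM libraries. With a floor of 3 reads per library, Serping1 was at least 231-fold and Cfi at least 4.43-fold higher in B6 WT RPE. The tissues were prepared and normalized separately, so these ratios describe the libraries and were not tested.

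**Figure D1:**
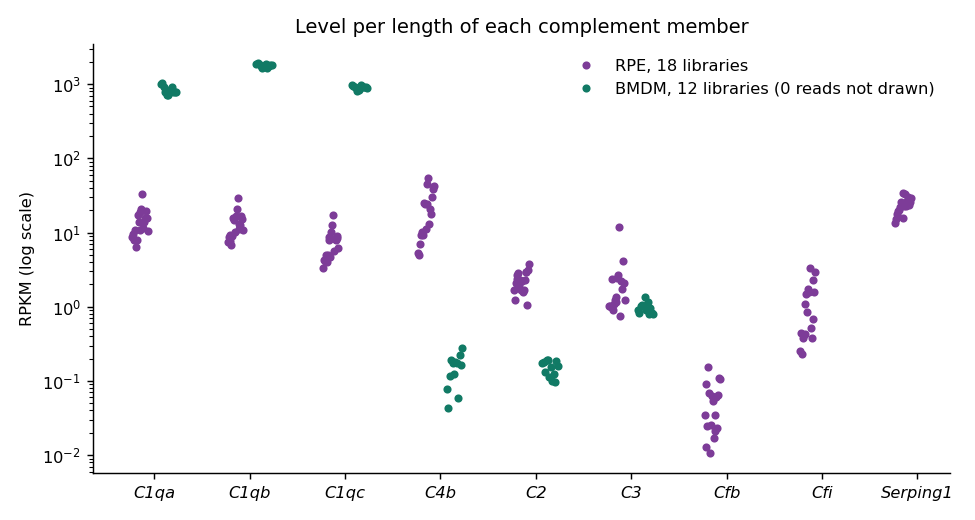
RPKM (log axis) for each member, 1 point per library, with 18 RPE and 12 BMDM libraries of all genotypes. C1qa, C1qb and C1qc stand highest in BMDMs, and Cfi, Cfb and Serping1 have no BMDM points because all 12 libraries held 0 reads.

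The balance within C1q differed between the tissues. Per length, C1qa stood at 0.894 to 1.22 times C1qb in the 18 RPE libraries but at 0.424 to 0.557 times C1qb in the 12 BMDM libraries, with no overlap. C1qc stood at 0.446 to 0.63 times C1qb in RPE and at 0.489 to 0.551 times C1qb in BMDMs, where the ranges overlap.

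In RPE, values below are normalized counts, which are reads divided by the size factor of the library. Called means an adjusted p under 0.05 in limma with a change of at least 2.38-fold, the thresholds of the study. Of the members, 8 passed the filter of a mean of at least 10 normalized counts, and Cfb did not. In V1 and V3, the contrasts behind the choice of genes, 2 of the 8 were called in each, C4b and Cfi, against 0.149% and 0.0637% of the 18832 genes tested, and nothing is read from that. Of the 2 called in V1, C4b had the smaller log2 fold change, 1.84, and C1qc, at 1.11, had the largest of those not called.

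C1qa, which encodes the A chain of C1q, was low in the 6 B6 WT libraries, with a lowest, median and highest value of 160, 235 and 298. In V1 it ran from 303 through 473 to 790, in V2 the 3 libraries held 319, 362 and 423, and in V3 482, 395 and 279. V1 and V2 libraries were all above B6 WT, and V3 overlapped with it through replicate 3. C1qb, the B chain, ran from 174 through 233 to 263 in B6 WT and from 295 through 445 to 728 in V1, and held 329, 357 and 362 in V2 and 437, 392 and 299 in V3. All knockout libraries were above all B6 WT libraries for C1qb. C1qc, the C chain, ran from 181 through 222 to 250 in B6 WT and from 244 through 462 to 750 in V1, and held 294, 400 and 397 in V2 and 390, 420 and 299 in V3. For C1qc a single V1 library, replicate 3, fell inside the B6 WT range. The mean log2 differences in V1 were 1.04, 1.02 and 1.11 for C1qa, C1qb and C1qc, and without the 5 rod-rich libraries they were 0.63, 0.71 and 0.81. In V3 the C1qa difference was 0.71 with all libraries and 0.36 without the rod-rich ones. By replicate number the V1 differences were 0.63, 0.70 and 0.78 in replicates 1 to 3 and 1.46, 1.34 and 1.44 in replicates 4 to 6, the set that holds the rod-rich libraries of V1 and B6 WT.

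C4b, which encodes a C4 protein of the classical arm, had B6 WT values of 854, 777, 1073, 1375, 1369 and 1290. Its V1 values were 3802, 3644, 1735, 6122, 3500 and 7084, its V2 values 1961, 3007 and 2666, and its V3 values 4142, 5254 and 6165. Every knockout library was above every B6 WT library, V1 replicate 3 being the lowest of them. The B6 WT libraries fell apart by number, with replicates 1 to 3 at 901 ± 153 and replicates 4 to 6 at 1345 ± 47.2 (SD, n = 3 each), and the labels do not say what the numbers mark. Within these sets the log2 fold change of C4b in V1 was 1.69 in replicates 1 to 3 and 1.99 in replicates 4 to 6. The log2 difference from B6 WT was 1.84 in V1, 1.19 in V2 and 2.22 in V3, and without the rod-rich libraries 1.81, 1.33 and 2.52.

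C2, the protease partner of C4, ran from 131 through 226 to 272 in B6 WT and from 151 through 188 to 237 in V1. V2 libraries held 237, 284 and 296 and V3 libraries 99.3, 289 and 376, so all 4 genotypes overlapped. C3 ran from 111 through 141 to 316 in B6 WT and from 158 through 244 to 1385 in V1, where replicate 6 stood far above the others. V2 libraries held 102, 288 and 231 of C3 and V3 libraries 508, 254 and 159, again overlapping with B6 WT. The V1 difference of C3, 0.94 on the log2 scale, was 0.18 without the rod-rich libraries, which include replicates 5 and 6 of V1, and it was 0.27 in replicates 1 to 3 and 1.62 in replicates 4 to 6. The V3 difference of C3 was 0.81, or 0.21 without the rod-rich libraries, and that of C2 was 0.09, or 0.82 without them. C2 in V1 turned from 0.23 in replicates 1 to 3 to -0.56 in replicates 4 to 6.

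Cfi, the factor I gene, was a low-count gene with 13.6, 22.2 and 27 as the lowest, median and highest B6 WT values. V1 libraries ran from 51.4 through 87.8 to 166 and V3 libraries held 122, 83.5 and 168, all above B6 WT. V2 libraries held 30.6, 21.2 and 39.6, and replicate 2 lay within the B6 WT range. Serping1, the C1 inhibitor gene, ran from 878 through 1107 to 1234 in B6 WT and from 997 through 1554 to 1904 in V1. V2 libraries held 1396, 1535 and 1855 of Serping1 and V3 libraries 1323, 1428 and 1752, all above B6 WT, while V1 replicate 3 fell within it. Cfb, the factor B gene, stayed between 0.802 and 10.5 normalized counts in all 18 libraries.

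**Figure D2:**
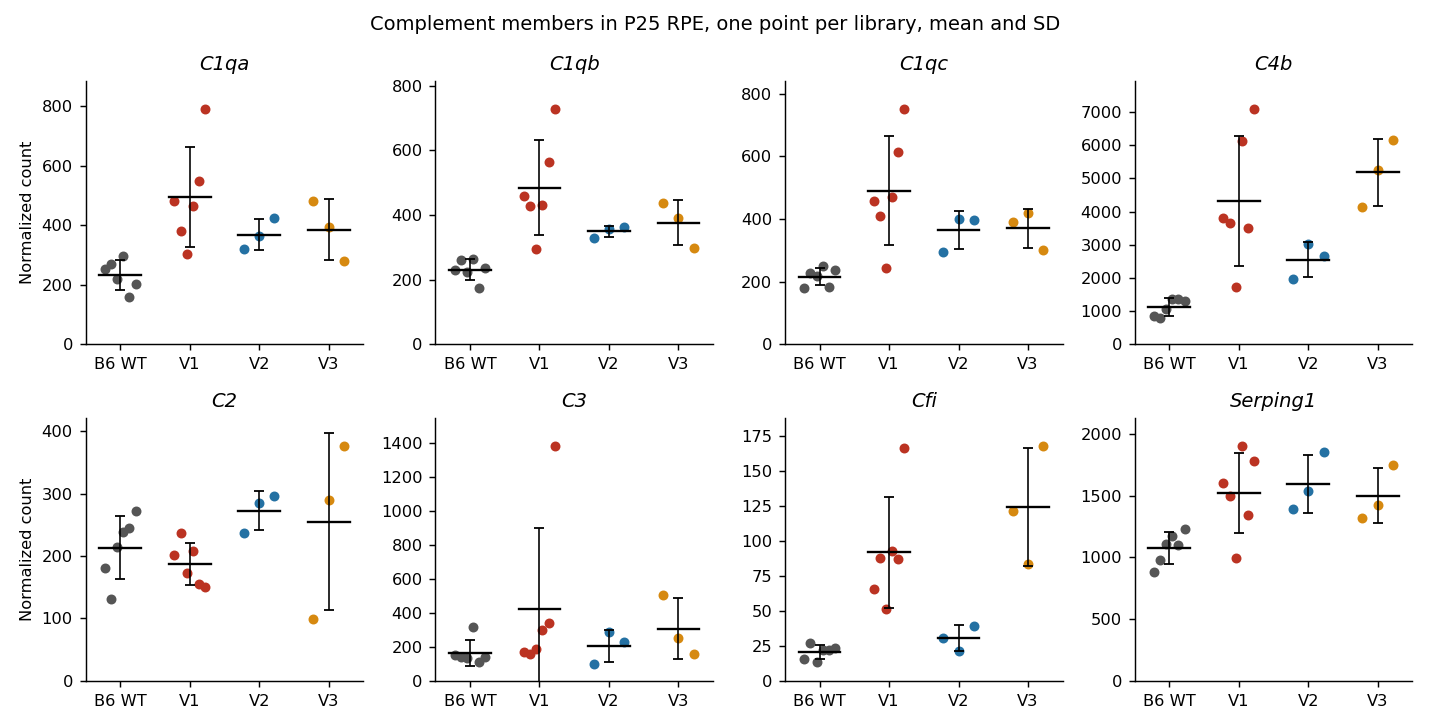
Normalized counts of 8 members in P25 RPE, 1 point per library (6 B6 WT, 6 V1, 3 V2, 3 V3) with the mean and SD of each genotype; the SD bar of C3 in V1 is cut at 0. C4b and C1qb lie above B6 WT in every knockout library, and Cfi does so in V1 and V3 only, with V2 replicate 2 at 21.2 inside the B6 WT range.

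V2 RPE is the only RPE contrast that was not used to choose the genes, although it is measured against the same 6 B6 WT libraries. No member was called in it and none passed the adjusted p alone, against 0.0584% and 0.069% of the 18832 genes, of which 1031 had an unadjusted p under 0.05. In V2, 5 of the 8 members, C4b, C1qa, C1qb, C1qc and Serping1, had all 3 V2 libraries above all 6 B6 WT libraries, against 5.66% of genes with no overlap in either direction (700 of the 1066 higher in V2). The same count was 4 of 8 in V1 (1.09% of genes) and 5 of 8 in V3 (4.32%). Those contrasts chose the genes and share the B6 WT libraries, so nothing is read from their counts. The median log2 fold change of the 8 members in V2 was 0.58, beside 0.02 over all genes tested.

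C4b had the largest V2 estimate, 1.19 (SE 0.334, 95% interval 0.49 to 1.90, limma adjusted p = 0.568). It was called with array quality weights (1.32, limma adjusted p = 0.0111), with the replicate block (1.56, adjusted p = 0.025) and without the rod-rich libraries (1.33, adjusted p = 0.0448), the last an alternative added after the data were seen. The C4b estimate was 1.49 against B6 WT replicates 1 to 3 alone and 0.90 against replicates 4 to 6 alone (limma adjusted p = 0.367 and 0.739). Over all its alternatives the C4b adjusted p ran from 0.0111 to 1. The C1q estimates were 0.67 for C1qa (95% interval 0.13 to 1.22, adjusted p = 0.827), 0.60 for C1qb (0.15 to 1.06, adjusted p = 0.77) and 0.75 for C1qc (0.21 to 1.28, adjusted p = 0.746), all by limma. Serping1 stood at 0.56 (0.20 to 0.92, adjusted p = 0.679). With array quality weights C1qa, C1qb, C1qc and Serping1 also passed the adjusted p (limma, 0.0371, 0.0228, 0.0243 and 0.0311), below the fold threshold, and Serping1 did so with the replicate block (0.70, adjusted p = 0.0453). Cfi stood at 0.53, with an interval from -0.17 to 1.22 and a limma adjusted p of 0.954. C2 stood at 0.38 (-0.29 to 1.06) and C3 at 0.28 (-0.94 to 1.51), so that a change in either direction was not detectable for these genes with 3 V2 libraries.

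Most macrophage markers were higher in knockout than in B6 WT RPE, as C1q was, but their sum with Csf1r overlapped between genotypes. Of 14 listed microglia and macrophage markers, all 14 were detected in every RPE library. Among them, 7 in V1, 6 in V2 and 4 in V3 had no library overlapping with B6 WT, all higher. The share of all genes without overlap, in either direction, was 1.09% in V1, 5.66% in V2 and 4.32% in V3. The sum of all 14 ran from 7677 to 12047 in B6 WT, 6920 to 11066 in V1, 9536 to 11626 in V2 and 6859 to 12371 in V3, so the genotypes overlapped. The summed count of the 3 C1q genes per unit of that sum was 0.0717 ± 0.0096 (SD, n = 6) in B6 WT, 0.17 ± 0.0825 (n = 6) in V1, 0.105 ± 0.0208 (n = 3) in V2 and 0.124 ± 0.0613 (n = 3) in V3. The sum was dominated by Csf1r (mean 7767 normalized counts in B6 WT), and with Csf1r left out, a choice made after its values were seen, the other 13 summed to 1531 to 2076 in B6 WT, 2548 to 4369 in V1, 2349 to 2865 in V2 and 2193 to 2775 in V3. The C1q count per unit of that smaller sum was 0.379 ± 0.0239 (SD, n = 6) in B6 WT, 0.451 ± 0.0825 (n = 6) in V1, 0.425 ± 0.0327 (n = 3) in V2 and 0.44 ± 0.0365 (n = 3) in V3. The B6 WT and V1 ranges of this second ratio, 0.338 to 0.408 and 0.331 to 0.566, overlapped. How far C1q moved apart from the markers thus depended on Csf1r. The part of macrophage number in the C1q values was not tested.

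**Figure D3:**
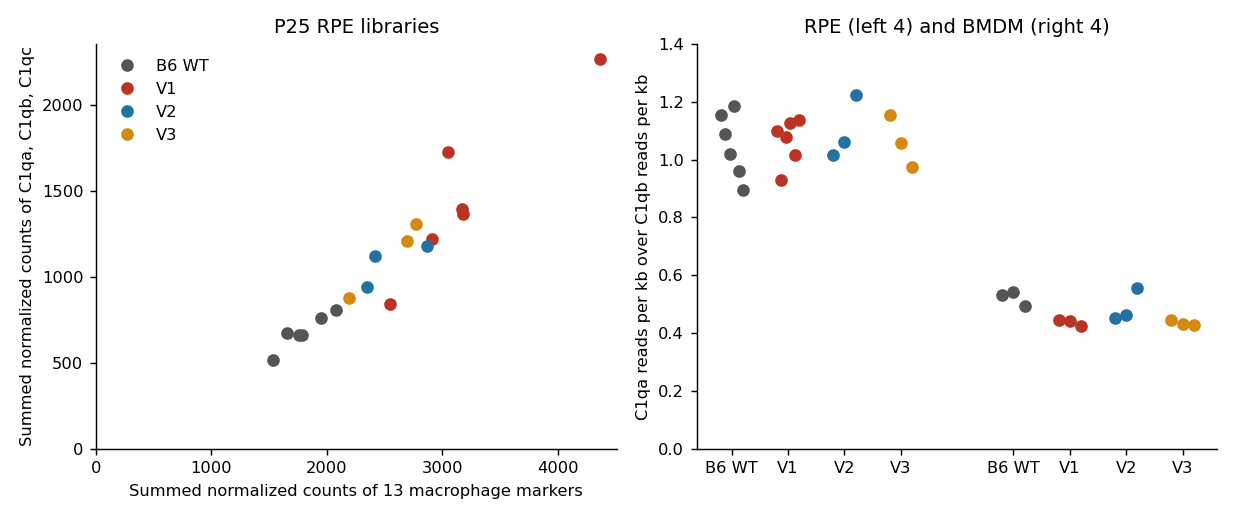
Left, summed normalized counts of C1qa, C1qb and C1qc against the sum of 13 macrophage markers (all but Csf1r) in the 18 RPE libraries; right, C1qa over C1qb in reads per kb for each RPE and BMDM library, coloured by genotype. C1q and the sum of these 13 markers are lowest in the 6 B6 WT libraries, while sums that include Csf1r overlap between genotypes. The C1qa to C1qb ratio runs from 0.894 to 1.22 in RPE and from 0.424 to 0.557 in BMDMs.

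Interferon-responsive genes also stood higher in V1 and V2. Of 20 listed genes, 8 in V1, 16 in V2 and 3 in V3 had no library overlapping with B6 WT, all higher. The share of all genes without overlap, in either direction, was 1.09% in V1, 5.66% in V2 and 4.32% in V3. The summed level of the 20 genes ran from 7362 to 11733 in B6 WT, 11763 to 22223 in V1, 13036 to 16845 in V2 and 9065 to 10743 in V3. In V3 the interferon sum was inside the B6 WT range. Of 12 listed genes of retinal stress and the acute phase, the sum ran from 9322 to 14169 in B6 WT, 14337 to 33125 in V1, 12804 to 19799 in V2 and 14249 to 20014 in V3. The parts of these programs in the values of the members were not tested.

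Across the 18 RPE libraries, with the mean of each genotype removed, C4b varied most like Serping1 among the members (Pearson r = 0.893), and less like C1qc (0.668) and Cfi (0.547). Among the 5 other tested genes most like C4b were Aox1 (0.917), Gm5830 (0.909), Gm9231 (0.894) and Prelp (0.882). For C1qa the closest members were C1qb (0.945), C1qc (0.833) and C3 (0.829), and the closest other genes Ctss (0.88), Eif4e3 (0.868), Fcrls (0.86), Wdr43 (0.844) and A830052D11Rik (0.833). Ctss and Fcrls are genes of macrophages and microglia. For Cfi the values were lower, with Gm16216 (0.802), Gm17802 (0.796), Zfp930 (0.792), Gm13461 (0.778) and Commd1 (0.775) first. These libraries share their size factors and tissue mixture, and the correlations are descriptions over 18 points.

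A wider list held 45 other complement genes, grouped by role. In RPE 26 of them passed the filter and none was called in V2. Each role had a leading gene per length, by the mean over all 18 libraries: C1ra (a C1 protease) for the classical arm, Fcna for the lectin arm, Cfp (properdin) for the alternative arm, C8g for the terminal components, Clu (clusterin) for the regulators and Itgam for the receptors. Clu was far above the others at 627 to 1438 RPKM, while C1ra lay at 2.71 to 5.75, Cfp at 2.9 to 8.2, Itgam at 1.9 to 8.94, C8g at 1.94 to 4.75 and Fcna at 0.0675 to 0.984. Fcna did not lead in each genotype: Masp1, a lectin-arm protease, was at 0.18 RPKM against 0.178 for Fcna in B6 WT and at 0.24 against 0.151 in V3. C1ra, the regulator Cd59a and the receptor C3ar1 had no overlap between V2 and B6 WT, all higher in V2, with log2 differences of 0.38, 0.72 and 0.69 (limma adjusted p = 0.9, 0.263 and 0.568).

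In BMDMs, 6 members passed the filter, and the 3 C1q genes stood highest among them. C1qa held 21287, 21529 and 19566 normalized counts in B6 WT and 16931, 15278 and 15295 in V1. In V2 it held 17112, 18592 and 18953 and in V3 16919, 16799 and 16642. All 9 knockout libraries were below all 3 B6 WT libraries. C1qa fell by 0.39 on the log2 scale in V1 (SE 0.0559, limma adjusted p = 0.00115) and by 0.31 in V3 (SE 0.0559, limma adjusted p = 0.0194). The V2 difference, -0.19 (95% interval -0.31 to -0.07), did not pass the test, with a limma adjusted p of 0.0672. By adjusted p alone C1qa was 1 of 6 members in V1, against 7.07% of the 13420 genes tested, and 1 of 6 in V3, against 1.17%. None of the 6 passed in V2 (4.61% of genes, 2868 genes with an unadjusted p under 0.05), and no member reached that fold threshold with an adjusted p under 0.05 in any BMDM contrast.

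The V1 fall of C1qa kept its direction and passed the adjusted p in all 14 alternatives run, with values of at most 0.0116. The V3 fall kept its direction but missed the adjusted p when any 1 of the 3 V3 libraries or B6 WT replicate 1 or 2 was left out, with limma adjusted p from 0.0819 to 0.126. The V2 difference passed the test without V2 replicate 3 (-0.22, adjusted p = 0.028) or without B6 WT replicate 3 (-0.23, adjusted p = 0.0404), and with array quality weights or DESeq2, and over its alternatives the adjusted p ran from 0.0201 to 0.241.

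C1qb held 41770, 41461 and 41429 in B6 WT, 39630, 36095 and 37724 in V1, 39574, 41927 and 35610 in V2, and 39859, 40654 and 40708 in V3. V1 and V3 libraries were all below B6 WT, and V2 replicate 2 was above it. C1qc held 38499, 37085 and 36951 in B6 WT, 35380, 32134 and 32987 in V1, 35638, 39341 and 34818 in V2, and 36546, 36416 and 35327 in V3, with the same order. The V1 differences were -0.14 for C1qb (95% interval -0.27 to -0.01, limma adjusted p = 0.186) and -0.16 for C1qc (-0.29 to -0.04, limma adjusted p = 0.0949). C1qc passed the adjusted p with array quality weights (-0.16, limma adjusted p = 0.0229) and with DESeq2 (-0.16, adjusted p = 0.0339). Within the library, C1qa per length was 0.494 to 0.543 times C1qb in B6 WT, 0.424 to 0.447 times in V1 and 0.428 to 0.444 times in V3, without overlap, and 0.452 to 0.557 times in V2, which overlapped with B6 WT.

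C4b was scarce in BMDMs, with 6 to 40 reads per library. B6 WT libraries held 9.04, 4.89 and 13.7 normalized counts, V1 22.3, 20 and 14.6, V2 20.6, 20.2 and 6.65, and V3 26.2, 19.2 and 32.1. V1 and V3 were all above B6 WT, by 1.05 (95% interval 0.11 to 1.98, limma adjusted p = 0.164) and 1.46 (0.53 to 2.40, limma adjusted p = 0.119) on the log2 scale, which did not pass the test. With array quality weights both did, at 1.29 (adjusted p = 0.0213) and 1.75 (adjusted p = 0.00547), and over the alternatives the adjusted p ran from 0.0213 to 0.462 and from 0.00547 to 0.399. C3 held 94.5, 84.8 and 107 in B6 WT and 112, 108 and 142 in V1, with no overlap and a difference of 0.33 (95% interval -0.04 to 0.69, limma adjusted p = 0.271). In V2 and V3, C3 ran from 81.7 to 123 and overlapped with B6 WT. C2 stayed between 7.65 and 15.3 in all 12 libraries. In V1, 5 of 6 members had no overlap with B6 WT, against 30.9% of genes, in V2 1 of 6 (22.7%) and in V3 4 of 6 (25.4%).

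**Figure D4:**
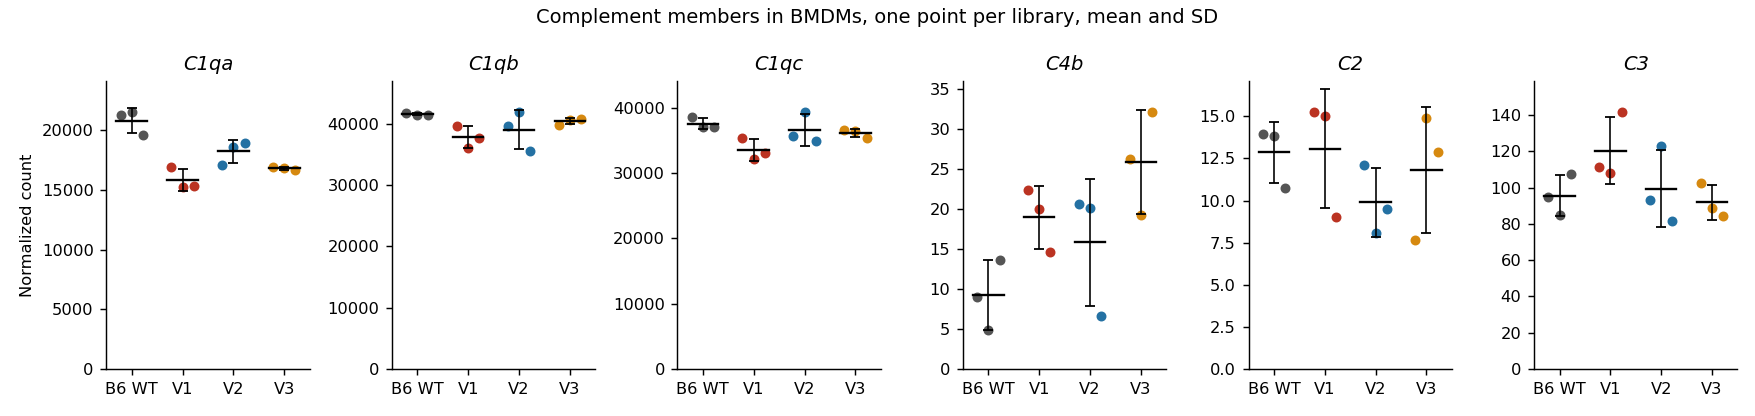
Normalized counts of 6 members in BMDMs, 1 point per library (3 per genotype), with the mean and SD. C1qa is lower in all 9 knockout libraries than in the 3 B6 WT libraries, and C4b and C2 lie under 33 counts throughout.

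Of the 14 macrophage markers, Tmem119, a microglial gene, was low in BMDMs, at 3.37 to 52.2 normalized counts, and their sum ran from 247733 to 280015 in B6 WT, 259140 to 274722 in V1, 227654 to 286850 in V2 and 272304 to 276296 in V3. No marker of the 14 passed the adjusted p in the 3 contrasts with B6 WT. Of the 12 RPE markers, 6, Lrat, Otx2, Rpe65, Ttr, Tyr and Tyrp1, were at 0 in all 12 BMDM libraries. Of the 20 interferon-responsive genes, 13 in V1, 3 in V2 and 9 in V3 had no overlap with B6 WT, all higher. The share of all genes without overlap, in either direction, was 30.9% in V1, 22.7% in V2 and 25.4% in V3. Their sum ran from 7922 to 8724 in B6 WT, 8935 to 9303 in V1, 7667 to 11227 in V2 and 8573 to 11289 in V3, and their part in the C1qa and C4b values was not tested.

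V1, whose stem cells came from another strain, was also set against the mean of the 2 B6-derived lines in BMDMs. None of the 6 members passed the adjusted p, against 0.991% of genes, of which 1588 had an unadjusted p under 0.05. C1qa differed by -0.14 (95% interval -0.25 to -0.04, limma adjusted p = 0.265), C1qc by -0.12 (limma adjusted p = 0.371) and C3 by 0.33 (limma adjusted p = 0.403).

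Of the wider list, 15 of 45 genes passed the filter in BMDMs. C5ar1, a receptor for C5a, and Cfp stood highest per length, at 368 to 419 and 306 to 429 RPKM, with overlapping ranges. Itgax, the integrin alpha X chain of complement receptor 4, rose in V1 (log2 1.43, SE 0.232, limma adjusted p = 0.00336) and was higher there than in the mean of V2 and V3 (log2 0.95, SE 0.201, limma adjusted p = 0.0376). C1ra rose in V2 (log2 0.56, SE 0.132, limma adjusted p = 0.0313). Cd59a, which blocks the terminal pore, rose in V3 (log2 0.77, SE 0.17, limma adjusted p = 0.0461) and was lower in V1 than in the mean of the other knockouts (log2 -0.84, SE 0.147, limma adjusted p = 0.0098). Cd59a lies on chromosome 2, on which V1 carries the other strain's sequence around Mertk. The part of that sequence in the V1 value of Cd59a was not tested. Fcna lay at 21.2 to 41.5, C1ra at 1.71 to 3.1, C8g at 0.789 to 1.51 and Cd59a at 5.19 to 13.7 RPKM, each the highest of its role by the mean over all 12 libraries. In V1 alone the regulator Cr1l, at 6.23 ± 0.13 RPKM (SD, n = 3), was level with Cd59a, at 5.94 ± 0.661.

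**Figure D5:**
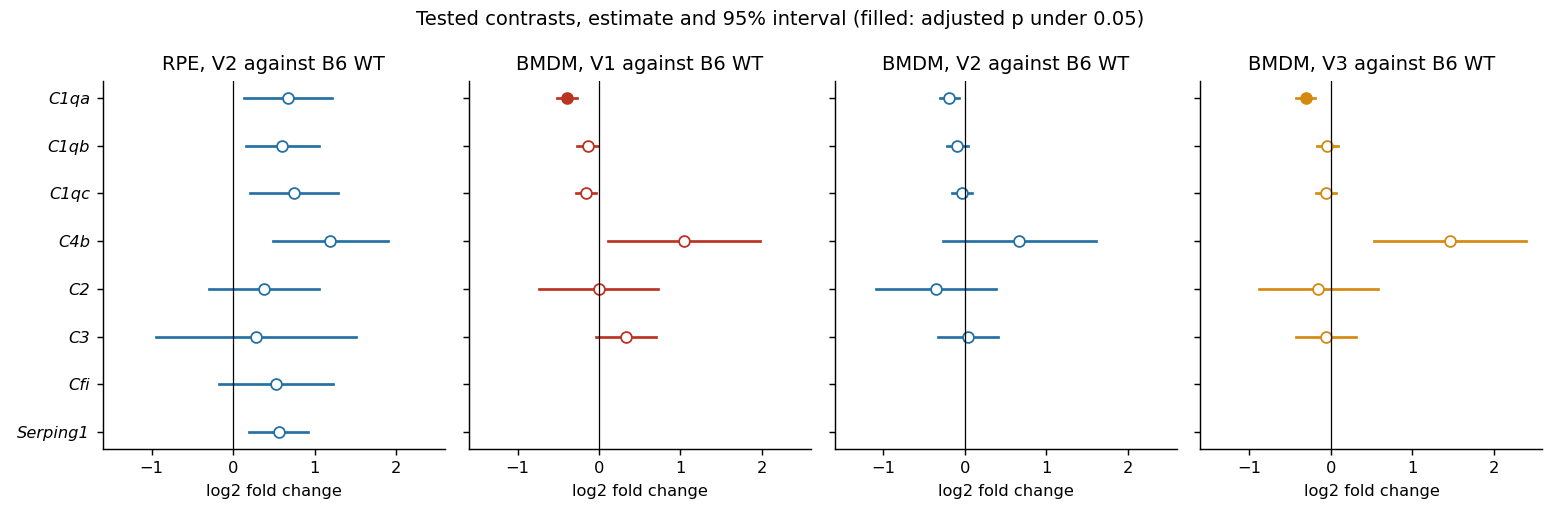
Log2 fold change against B6 WT with its 95% interval from limma for the members tested in the contrasts that did not choose the genes; filled points have an adjusted p under 0.05. C1qa in V1 and V3 BMDMs is filled, and the V2 RPE estimates lie to the right of 0 for all 8 members.

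The V2 effect was compared between tissues in a single edgeR model on the recovered reads of all 30 libraries. The V2 effect in RPE exceeded that in BMDMs by 0.87 for C1qa, 0.70 for C1qb and 0.81 for C1qc on the log2 scale, and none passed the correction (edgeR adjusted p = 0.406, 0.432 and 0.45). For C4b the difference was 0.43, for C2 0.76 and for C3 0.29 (edgeR adjusted p = 0.994, 0.712 and 1). None of these 6 members passed, against 0.0431% of the 20873 genes. Cfi and Serping1, at 0 reads in BMDMs, give no such difference.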

How the data were processed

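RNA-seq had been run on poly(A) RNA as 150-base paired reads from P25 RPE (18 libraries) and BMDMs (12 libraries). The V1 line came from 129P2 embryonic stem cells. The authors aligned the reads to GRCm38 with STAR and deposited a normalized count per gene and library, a signal that is the read count divided by a DESeq2 size factor, in a separate table for each tissue. The gene counter, its annotation and its use of strand are not given in the sources used here, so a C4b or C4a read cannot be traced to the rule that placed it. Dividing each deposited column by the value of 1 read gave whole reads for 100% of values (tolerance 0.001), and those reads served the count tests. Of 55573 gene identifiers, 55394 matched GENCODE M21, which gave positions and exon lengths.

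Members and gene lists were chosen with earlier results of these data known. The main test was limma 3.58.1 on log2(normalized count + 1) with all 4 genotypes of a tissue in a single model, for genes averaging 10 or more normalized counts, with Benjamini-Hochberg adjustment; a call needed an adjusted p under 0.05 and an absolute log2 change of 1.25 or more. Fold changes are on that log2 scale, which understates changes of low genes. edgeR 4.0.16 tested the tissue difference on recovered reads, and edgeR and DESeq2 1.42.0 were alternatives (R 4.3.3). Other alternatives were a pseudocount of 5, no filter, only the groups compared, quantile normalization, array quality weights, a replicate block, each library left out and the RPE replicate sets. The fits were tested on simulated data. Named genes were all members, the wider complement genes called in a tested contrast, the highest per role, and the 5 most alike in pattern, of which 1 is not reported here. RPKM values used recovered reads and exon lengths. Intervals and floors cover counting or library spread only.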

Additional observations from a re-analysis of the deposited data

Results flagged for a closer look

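In RPE, single libraries stood far from the other 5 of their genotype in 3 of 18 groups examined, where chance gives about 1 in 20. Cfi reached 166 normalized counts in V1 replicate 6, C3 reached 316 in B6 WT replicate 4, and C3 reached 1385 in V1 replicate 6. The last library also had the lowest sum of RPE markers, 227041, and a rod marker sum of 562143.

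For 5 combinations of a C1q gene and a genotype, every knockout library was above B6 WT in RPE and below it in BMDMs. In BMDMs, 30.9% of genes in V1, 22.7% in V2 and 25.4% in V3 had no overlap with B6 WT, in either direction. The BMDM change in V3 was -0.04 for C1qb (interval -0.17 to 0.09, limma adjusted p = 0.789). For C1qc it was -0.06 (-0.18 to 0.07, limma adjusted p = 0.677). An opposite direction was thus not shown for either gene in V3. Among the others, C1qa in V1 passed the adjusted p in BMDMs (-0.39, limma adjusted p = 0.00115). C1qb in V1 and C1qa in V2 did not. The log2 fold change in RPE minus that in BMDMs was 1.44 for C1qa and 1.16 for C1qb in V1, 0.86 for C1qa in V2, and 0.73 for C1qb and 0.83 for C1qc in V3. The V1 and V3 differences were not tested, since those RPE contrasts chose the genes, and the V2 difference of C1qa had an edgeR adjusted p of 0.406.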

How the results depend on the processing

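With few libraries and an RPE preparation whose rod content varied, counts of called members moved. In the V1 and V3 RPE contrasts, which chose the genes, such counts are descriptions only and carry no test. In V1 RPE 2 members were called with all libraries, 0 with replicates 1 to 3 and 1 with replicates 4 to 6. In V2 RPE, 0 became 1 with array quality weights, with the replicate block or without the rod-rich libraries, the last chosen after the data were seen. In V3 RPE, 2 became 0 against B6 WT replicates 4 to 6 alone, and single libraries left out gave 0 (without V3 replicate 3), 1 (without V3 replicate 2) or 2. In BMDMs, 0 became 1 with array quality weights in V1 and in V3 (C4b). The causes were not tested. Other counts of called members stayed within 1.5 times of these under the alternatives run.

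Several estimates near 0 that passed no test changed sign. C2 in V1 BMDMs was 0.0033 with a pseudocount of 5, 0.022 with edgeR and 0.026 with DESeq2, and -0.12 to 0.23 with single libraries left out. Quantile normalization gave -0.012 for C3 and 0.014 for C1qc in V2 BMDMs and 0.035 for C4b in V1 against the mean of V2 and V3. With single libraries left out, C3 in V2 RPE ran from -0.017 to 0.72, C3 in V2 BMDMs from -0.12 to 0.17, C3 in V3 BMDMs from -0.14 to 0.031, C2 in V3 BMDMs from -0.33 to 0.11, and C4b in V1 against the mean of V2 and V3 from -0.27 to 0.15.

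The labels do not say whether replicate numbers pair the libraries, and these correlations cannot decide it. Same-numbered RPE libraries of different genotypes deviated together with a median r of 0.151 (-0.462 to 0.724). For other numbers the median was -0.00338 (-0.711 to 0.744). In BMDMs the medians were -0.0929 for the same number and 0.0422 for other numbers. With the replicate block, C4b (1.56, adjusted p = 0.025) and Serping1 (0.70, adjusted p = 0.0453) passed the test in V2 RPE and C1qa missed it in V3 BMDMs (-0.31, adjusted p = 0.0549), all by limma.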
